A study of Rattus norvegicus with 16 samples.

Results

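The genes described here are the 59 rows, of 8671 in a table of RNA immunoprecipitation (RIP) targets from rat spinal dorsal horn, whose annotated biotype was lincRNA (31 genes), antisense_RNA (3 genes) or processed_transcript (25 genes). Their acetylation peaks are the rows of 6 ac4C peak lists that carry the same gene identifiers, 234 peaks in all. All tissue was dorsal horn of the spinal cord from rats labelled WT, either normal (control) or with cancer-induced bone pain (CIBP). Strain, sex, age, the tumour cells and the number of animals behind a sample are not given in the sources used here. The ac4C assay had 3 control and 3 CIBP pairs of an immunoprecipitated (IP) library and its input, labelled as biological replicates, and the RIP had 2 such pairs, both from CIBP. The 3 CIBP peak lists carry the abbreviation CFA in place of CIBP, and the groups here follow the labels. The labels give the RIP libraries the same ac4C kit as the other libraries and name no other antibody. Read depth is unknown for all libraries.

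Long noncoding RNAs are transcripts without a recognised protein product. Some stay in the nucleus, where they organise nuclear bodies or act on chromatin, and others act in the cytoplasm. N4-acetylcytidine (ac4C) is an acetylated cytidine, deposited by the acetyltransferase NAT10 in ribosomal RNA, transfer RNA and other transcripts. In an ac4C assay RNA fragments are pulled down with an antibody, and places where the IP exceeds the input are called as peaks.

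The name long noncoding RNA held for only some of these rows. Of the 25 processed_transcript rows, 24 carried a symbol that RefSeq (assembly GRCr8) lists as protein-coding, and the other, Tnxb, had no match by symbol. Examples are Syne1, Taf1, Smg1 and Top2b, so these rows are referred to by their biotype and not as noncoding RNAs. Of the 31 lincRNA rows, 4 matched a RefSeq long noncoding RNA (Tug1, Kantr, LOC102549726 and LOC102553190) and 27 had no match. Of the 3 antisense_RNA rows, Fam104b matched a protein-coding symbol and 2 had no match. From a list of 59 symbols of known long noncoding RNAs, only Tug1 was among the rows. The table held only genes past the authors' limits, so a missing symbol says nothing of its level in the tissue.

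A pair of facts about the whole series bears on every peak count below. The CIBP 1 list held 50417 peaks, of which 49281 had 1 recurrent fold enrichment of 10.6, with a p-value of 0.0372 and a false discovery rate (FDR) of 0.0562. The other 5 lists held between 1173 and 2416 peaks, so counts are given as deposited, without CIBP 1, and at an FDR of at most 0.05. As to tissue, rows were present for 5 of 5 oligodendrocyte markers, 4 of 4 astrocyte markers, 4 of 4 microglia markers, 3 of 4 dorsal horn markers, 1 of 3 neuron markers and 0 of 3 muscle and bone markers.

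In the RIP, the lincRNA rows had lower enrichment than the table as a whole. Their median log2 fold of IP over input in the authors' deposited table was 1.94 (interquartile range 1.63 to 2.39, n = 31), against 2.40 over all 8671 rows and 2.40 over the 8420 protein-coding rows. By the authors' deposited table, 8 lincRNA rows lay above the median of all rows and 23 below it. The processed_transcript rows lay nearer to it, with 11 above and 14 below and a median of 2.31 by the authors' deposited table. All 3 antisense_RNA rows lay below it, around a median of 2.11 by the authors' deposited table. Every row had a log2 fold over 1 and the largest p-value was 0.0488, so these medians describe rows that were already selected and carry no test. In all 59 rows both IP libraries exceeded both inputs, as they did in 8669 of the 8671 rows (100 percent after rounding), which the selection largely fixes.

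The input level of the lincRNA rows was also lower. Their median of mean input signal, in the authors' normalised unit, was 2.26, against 3.36 for processed_transcript rows and 3.33 for protein-coding rows. Below the lower quartile of input in the table, 2.05, lay 13 of the 31 lincRNA rows. Among rows at or above that level the median log2 fold from the authors' deposited table was 1.68 over 18 lincRNA rows and 2.40 over 6503 rows of all kinds. The part of input level in the lower enrichment was not tested. The 2 RIP pairs differed more for lincRNA rows than for others. The median distance between the log2 folds of pair 1 and pair 2 was 0.456 for lincRNA, 0.261 for processed_transcript and 0.246 over the table. The pairs lay more than 1 log2 unit apart for 4 of the 59 rows (6.78%, against 3.81% of the table), and all 4 were lincRNA rows: Kantr, LOC102553190, AABR07045680.1 and AABR07036331.2.

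**Figure D1:**
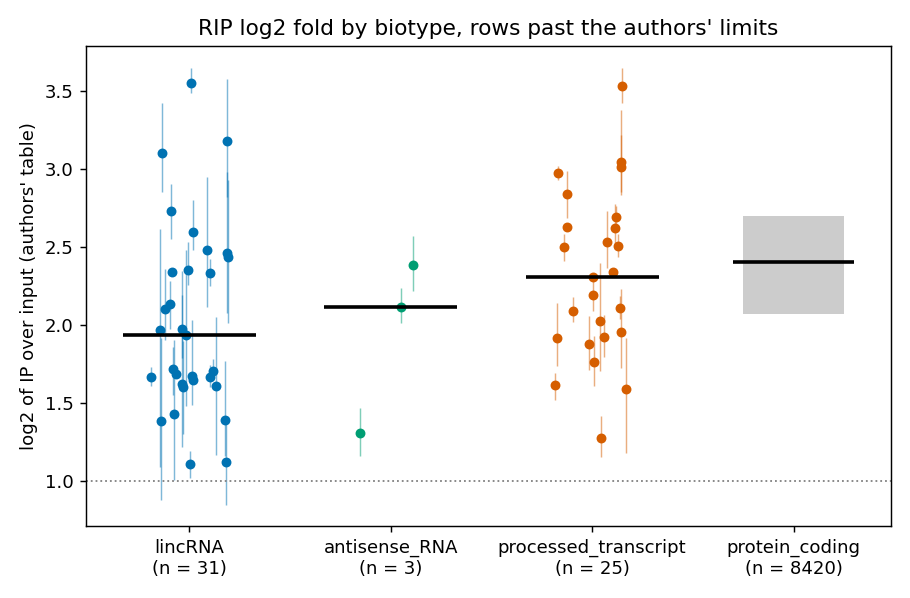
Log2 of IP over input in the RIP by biotype, 1 point per gene from the authors' table, with a thin line from the fold of pair 1 to that of pair 2. Black bars are medians, the grey box is the interquartile range of the protein-coding rows, and the dotted line is the authors' limit of 1. The lincRNA median of 1.94 lies below the protein-coding median of 2.40, and the processed_transcript median of 2.31 lies between them.

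Of the 5 highest mean input signals of the RIP table, 3 belonged to lincRNA rows. Rn60_1_2212.3 had the highest mean input signal of all 8671 rows, with 1923 and 1944 in inputs 1 and 2 and 6129 and 6286 in IP libraries 1 and 2. Rn60_1_2212.4 ranked second with 1278 and 1341 in the inputs and 2921 and 2721 in the IP libraries. Rn60_1_2212.2 had rank 5, with 788 and 800 in the inputs and 2494 and 2471 in the IP libraries. In each of the 3 rows both IP libraries stood above both inputs and the libraries of a kind lay close together. Their log2 folds in the authors' deposited table were among the lowest, at 1.65 for Rn60_1_2212.2, 1.68 for Rn60_1_2212.3 and 1.11 for Rn60_1_2212.4. Together these rows held 6.49% and 6.28% of the summed input signal of the table but 3.25% and 3.18% of the summed IP signal. The unit of the signal is not stated, so whether levels of different genes are given per length is unknown.

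The deposited files give these 3 identifiers no gene symbol beyond the clone-like names. Peaks placed Rn60_1_2212.2 and Rn60_1_2212.4 on the minus strand of chromosome 1 (rn6), within 1 neighbourhood. No peak gave a position for Rn60_1_2212.3.

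**Figure D2:**
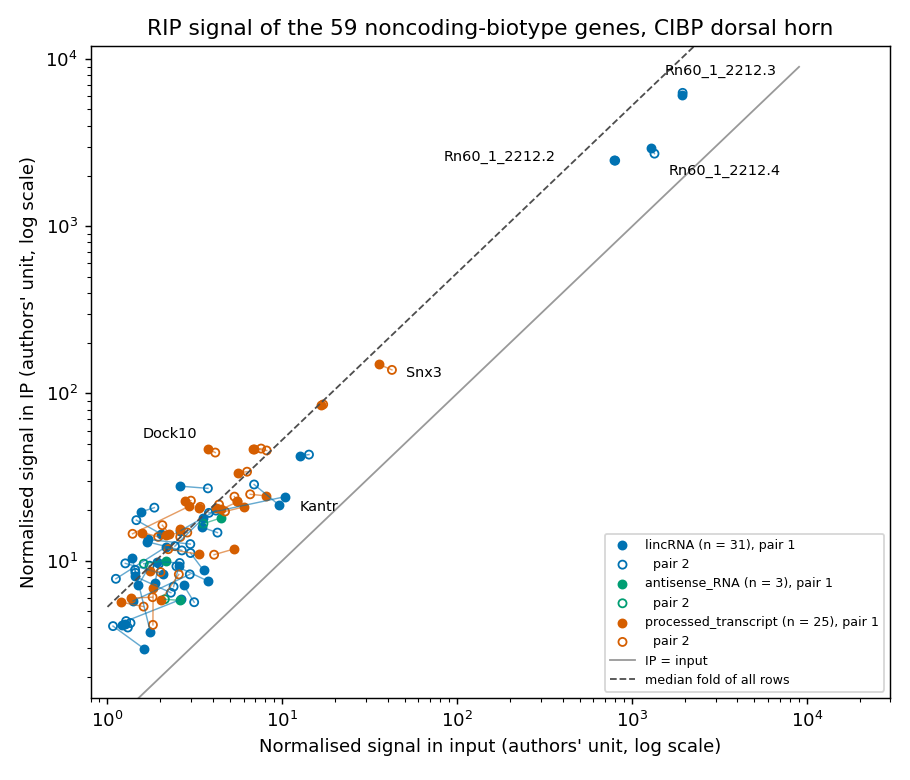
Normalised signal in IP against input for the 59 genes on log axes, with filled points for pair 1 and open points for pair 2 joined by a line. The grey line marks equal signal and the dashed line the median fold of all 8671 rows. The 3 lincRNA rows Rn60_1_2212.2 to Rn60_1_2212.4 sit alone among the 59 at input signals of 788 to 1944, below the dashed line, and Kantr shows inputs of 10.4 and 3.80.

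Tug1, a nuclear and cytoplasmic long noncoding RNA that is widely expressed in brain, was a row of low input and of ordinary enrichment. Its signal was 2.07 and 1.26 in inputs 1 and 2 and 8.33 and 9.62 in IP libraries 1 and 2. Both IP values stood above both inputs, and the log2 fold was 2.01 in pair 1 and 2.93 in pair 2. The log2 fold of 2.43 in the authors' deposited table lay close to the median of all rows. Tug1 (chromosome 14, peaks from 83878295 to 83887584 on the minus strand, rn6) had peaks in CIBP 1 alone, 5 of them, all at the recurrent fold and together covering 3987 exonic bp.

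Kantr, named as a noncoding transcript beside Kdm5c, had a signal of 10.4 and 3.80 in the inputs and 24.1 and 19.3 in the IP libraries. The inputs differed more than the IP libraries, and the log2 fold was 1.21 in pair 1 and 2.34 in pair 2. LOC102553190 differed the other way, in the IP, with 1.76 and 1.44 in the inputs and 3.74 and 8.80 in the IP libraries. LOC102549726, the remaining row matched to a RefSeq long noncoding RNA, had 3.54 and 2.98 in the inputs and 8.73 and 11.1 in the IP libraries. Each of these 3 had ac4C peaks in CIBP 1 only.

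The highest enrichment of the 59 rows was that of AABR07008030.1, a lincRNA, with 1.56 and 1.85 in the inputs and 19.6 and 20.7 in the IP libraries. Its log2 fold of 3.55 in the authors' deposited table ranked 52 of 8671. Dock10, a guanine nucleotide exchange factor under a processed_transcript row, followed with 3.73 and 4.13 in the inputs and 46.8 and 44.3 in the IP libraries. Its log2 fold in the authors' deposited table was 3.53, rank 55. In both genes the 2 pairs lay close together, at 3.65 and 3.48 for AABR07008030.1 and 3.65 and 3.42 for Dock10.

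Of the next rows, AABR07002969.1 and Rn50_X_0635.2 are lincRNA rows with log2 folds of 3.18 and 3.10 in the authors' deposited table. The processed_transcript rows Smim20, Csmd3, Smg1, Taf1 and Syne1 had log2 folds between 2.69 and 3.04 in the authors' deposited table, and the lincRNA AABR07033720.1 had 2.73 there. Smg1 is a kinase of nonsense-mediated decay, Taf1 the scaffold subunit of TFIID, and Csmd3 a large transmembrane protein. Rn50_X_0635.2 had inputs of 2.60 and 3.75 and IP signals of 27.9 and 27.0, yet had no ac4C peak in any list.

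At the low end stood Rn60_1_2212.4, LOC102551095 (1.12 in the authors' deposited table), Tnxb (1.27), Rn50_X_0714.1 (1.30) and AABR07036331.2 (1.38). LOC102551095, a lincRNA, had 2.72 and 3.13 in the inputs and 7.12 and 5.63 in the IP libraries. Tnxb, the extracellular matrix protein tenascin-X, had 5.27 and 4.07 in the inputs and 11.7 and 10.8 in the IP libraries. IP exceeded input in both pairs of both genes, by a log2 fold of 0.85 to 1.41. In AABR07036331.2 the log2 fold was 0.88 in pair 1 and 1.91 in pair 2.

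Besides these 3 rows, Rn60_1_2212.2 to Rn60_1_2212.4, high inputs belonged to Snx3 and the lincRNA AABR07017145.1. Snx3, a sorting nexin of endosomal recycling, had 35.8 and 42.3 in the inputs and 149 and 138 in the IP libraries. AABR07017145.1 had 12.7 and 14.2 in the inputs and 42.4 and 43.1 in the IP libraries. Further rows among the 10 highest inputs were Rn50_13_0829.4, Astn1, Bai1 and Syne1, with inputs between 6.54 and 9.57 and IP signals between 21.5 and 46.8. Rn50_13_0829.4 was the lincRNA of these 4 and showed the widest gap between its pairs, with log2 folds of 1.17 and 2.05.

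In the ac4C peak lists as deposited, 9, 7 and 8 of the 59 genes had a peak in controls 1, 2 and 3, and 54, 10 and 6 in CIBP 1, 2 and 3. As shares of the 59 these were 15.3%, 11.9% and 13.6% in the controls and 91.5%, 16.9% and 10.2% in CIBP. Over all rows of the RIP table the same shares were 10.5, 15.6 and 12.6 percent in the controls and 81.1, 19.9 and 9.88 percent in CIBP, so the members' counts ran near the background in most lists. The mean was 8 ± 1 genes in controls (SD, n = 3) and 23.3 ± 26.6 in CIBP (SD, n = 3), with CIBP 1 far above all other lists and CIBP 3 below every control. A two-sided exact permutation test of 3 against 3 lists, which cannot go below 0.1, gave p = 0.6 (0.8 after Benjamini-Hochberg adjustment over 2 measures). Without CIBP 1 the difference of the means was 0.

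At an FDR of at most 0.05 the counts were 7, 4 and 6 genes in the controls and 6, 6 and 5 in CIBP. The same shares over all rows were 8.23, 9.58 and 9.31 percent in the controls and 8.59, 11.3 and 7.85 percent in CIBP. Both groups had a mean of 5.67 genes, with an SD of 1.53 in controls and 0.577 in CIBP (n = 3 each), and the exact permutation p was 1. As a share of the RIP-table genes with a peak in a list, the 59 genes made up 0.989%, 0.519% and 0.731% in controls and 0.767%, 0.578% and 0.700% in CIBP as deposited. The means of 0.746 ± 0.236% and 0.682 ± 0.0959% (SD, n = 3 each) differed by less than the spread between lists (exact permutation p = 0.8, 0.8 after adjustment). The long CIBP 1 list did not stand apart on this share.

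**Figure D3:**
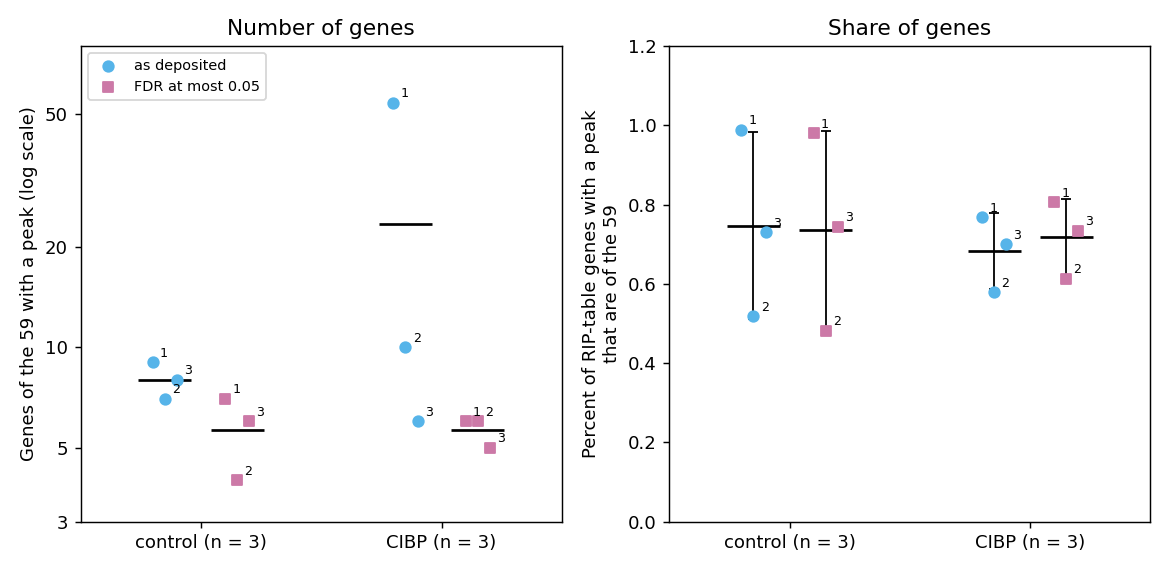
Number of the 59 genes with a peak (left, log axis) and their percent of the RIP-table genes with a peak (right) in each of 3 control and 3 CIBP lists, numbered by replicate. Bars are means and error bars on the right are SDs. The CIBP 1 list holds 54 genes as deposited and 6 at an FDR of at most 0.05, while its share of 0.767% lies within the control range.

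Most of the members' peaks in CIBP 1 were of the recurrent kind, 171 of 180 (95%, against 97.7% of the list). For 35 of the 59 genes, 23 of them lincRNA rows, CIBP 1 was the only list with a peak, as it was for 45.4 percent of all rows. No list held a peak for Rn60_1_2212.3 and Rn50_X_0635.2. The other 3 genes without a CIBP 1 peak were Bai1, Rn60_1_2212.2 and Rn60_1_2212.4. Such genes made up 18.9% of the RIP table.

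Outside CIBP 1, 22 of the 59 genes had a peak, against 45 percent of all rows. The classes parted here. Of the processed_transcript rows 16 of 25 (64%) had such a peak, of the lincRNA rows 6 of 31 (19.4%), of the antisense_RNA rows 0 of 3, and of the protein-coding rows 45.8%. At an FDR of at most 0.05 in any list the count was 18 of 59 (30.5%, against 36.8 percent of all rows). These comprised 14 of 25 processed_transcript rows (56%) and 4 of 31 lincRNA rows (12.9%), beside 37.4% of protein-coding rows. A peak at that limit in at least 2 lists was found for 9 genes, all of them processed_transcript rows (36% of that class, against 12.6 percent of all rows and 12.8% of protein-coding rows). Lower input signal of the lincRNA rows, given above, went along with their fewer peaks, and its part in the difference was not tested.

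**Figure D4:**
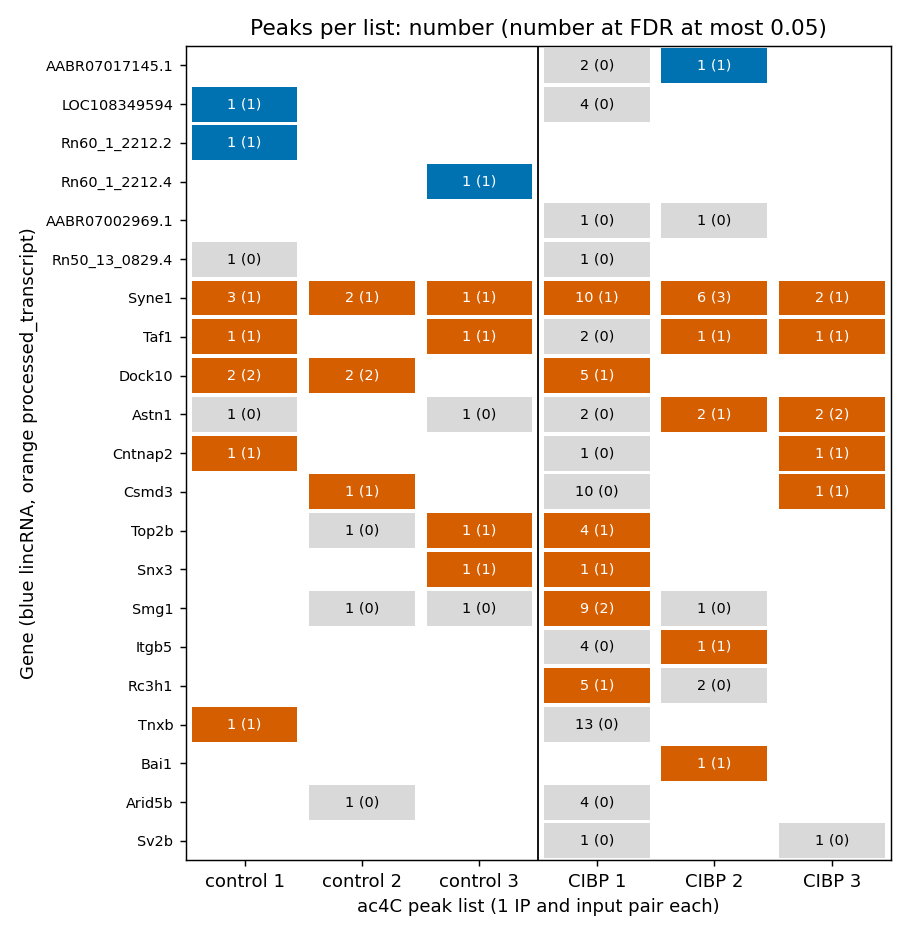
Peaks of genes with a peak outside CIBP 1, by list (1 of the 22 is not shown), as the number of peaks with the number at an FDR of at most 0.05 in parentheses. Coloured cells hold at least 1 peak at that limit (blue lincRNA, orange processed_transcript), grey cells hold only peaks above it, and empty cells hold no peak. Syne1 is the only gene coloured in all 6 lists, and each coloured lincRNA cell stands alone in its row.

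The 4 lincRNA genes with a peak at the FDR limit each had it in a single list. LOC108349594 had the highest fold of all 40 member peaks at the limit, 409 in control 1, over 180 bp of 1 exon block on the minus strand of chromosome 1 (134883934 to 134884113, rn6). This fold, like the others below, is the authors' value for the peak, and it ranked 14 in the list of 1208 peaks. In CIBP 1 the gene had 4 peaks, all above the limit, and it had none in the remaining 4 lists.

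Rn60_1_2212.2 had a peak in control 1 at 221156434 to 221156583 on chromosome 1, with a fold of only 1.64 but a -log10 p of 218. Rn60_1_2212.4 had a peak in control 3 at 221158185 to 221158387 with a fold of 1.80 and a -log10 p of 1080. Within their lists these folds were among the lowest, at ranks 27 and 21 from the bottom, while the p-values ranked 42 and 2 from the top. In both of these rows, of very high RIP input signal, a small fold came with a very small p-value. The signal is from the RIP inputs in CIBP and the peaks are from control ac4C lists. A relation of signal to p-value was not tested. The fourth lincRNA, AABR07017145.1, also of high input, had a fold of 1.82 and a -log10 p of 3.67 in CIBP 2 (chromosome 15, 12792351 to 12795407, plus strand).

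Among the processed_transcript rows, Syne1, a giant spectrin-repeat protein of the nuclear envelope, had a peak at the FDR limit in every list. The highest fold of its peaks at that limit came to 9.73 (control 1), 9.79 (control 2) and 16.7 (control 3), and to 17.6 (CIBP 1), 15.7 (CIBP 2) and 2.81 (CIBP 3). At that limit the groups overlapped, with CIBP 3 the lowest of all. CIBP 3 also held a Syne1 peak of fold 13.3 that missed the limit, at an FDR of 0.0676. Taf1 had a peak at the limit in 4 lists, with folds of 6.41 and 78.2 in controls 1 and 3 and 26.1 and 77.7 in CIBP 2 and 3. The 2 groups thus covered much the same range for Taf1. Dock10 had peaks in 3 lists, with folds of 49.9 and 73.5 in control 1, 19.6 and 26.1 in control 2 and 10.6 in CIBP 1. The CIBP 1 peak of Dock10 had the recurrent fold but a -log10 p of 5.10. The peaks of Syne1, Taf1 and Dock10 at the limit lay at different places, so their folds do not compare 1 site between lists.

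A further 6 genes had peaks at the limit in 2 lists. Cntnap2 encodes Caspr2, which clusters potassium channels beside the node of Ranvier, and had a fold of 22.0 in control 1 and 110 in CIBP 3. Csmd3 had 19.6 in control 2 and 70.7 in CIBP 3. Top2b, a DNA topoisomerase of neurons, had 33.5 in control 3 and 4.23 in CIBP 1. Snx3 had 6.28 in control 3 and 1.35 in CIBP 1. Each of these 4 genes had 1 list of each group. The 2 peaks of a gene lay at different places, from 2139 bp apart in Snx3 to 415807 bp in Cntnap2. Their folds therefore do not compare 1 site between groups. The other 2 genes had both lists in 1 group.

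A gene counted as gained or lost in CIBP with a peak in at least 2 of 3 lists of 1 group and in 0 of 3 of the other. At the FDR limit 1 gene was gained (1.8 percent of all rows were) and 1 lost (1.71 percent). The gained gene was Astn1, an adhesion protein of neuronal migration along glia. Its peaks at the limit had a fold of 19.2 in CIBP 2 and folds of 76.0 and 19.4 in CIBP 3. Controls 1 and 3 each held an Astn1 peak that missed the limit, with folds of 6.01 and 5.58. With peaks as deposited Astn1 did not meet the rule, and no single gene can reach an exact permutation p below 0.1 in this design.

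As deposited, 5 genes were gained (11.3 percent of all rows were) and 0 lost (0.738 percent). The gained genes were Itgb5, an integrin subunit, Rc3h1, the mRNA decay factor Roquin-1, Sv2b, a synaptic vesicle protein, and the lincRNAs AABR07002969.1 and AABR07017145.1. All 5 drew 1 of their lists from CIBP 1, and without that list 0 genes were gained. Outside CIBP 1 their folds were 23.5 for Itgb5, 10.5 for both Rc3h1 peaks, 3.49 for AABR07002969.1 and 1.82 for AABR07017145.1 in CIBP 2, and 2.21 for Sv2b in CIBP 3. Of these peaks only those of Itgb5 and AABR07017145.1 met the FDR limit. Without CIBP 1, 2 genes were lost, and without CIBP 2 only 1 was gained. At a p-value of at most 0.001 the gained genes were Astn1 and Smg1 (2.06 percent of all rows), and 0 were lost (1.8 percent).

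Smg1 and the single-list genes complete the set. Smg1 had folds of 17.6 and 37.0 at the limit in CIBP 1 and folds of 13.0, 11.2 and 15.7 above it in control 2, control 3 and CIBP 2. Tnxb had a peak of fold 22.4 in control 1, Bai1 (an adhesion receptor of brain) of 83.6 in CIBP 2, and Rc3h1 of 24.3 in CIBP 1. Arid5b, a DNA-binding protein, and Rn50_13_0829.4 had their peaks outside CIBP 1 only above the limit, with folds of 2.17 in control 2 and 3.21 in control 1.

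Where a gene had peaks in several lists, they lay at different places. At the FDR limit the 40 member peaks formed 40 separate segments, and 0 were shared by 2 lists, against 7.1 percent of 4915 segments in all RIP-table genes (349). The 8 Syne1 peaks at the limit spread over 314757 bp of chromosome 1 (41609197 to 41923953, minus strand), and the nearest pair from different lists lay 11517 bp apart. In Taf1 (chromosome X, 71420389 to 71479487, plus strand) the nearest such pair lay 1328 bp apart, and in Dock10 (chromosome 9, 86315322 to 86571691, minus strand) 22926 bp. In the other 6 genes with 2 lists the nearest gap ran from 2139 bp in Snx3 to 415807 bp in Cntnap2. These are distances on the genome, introns included.

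**Figure D5:**
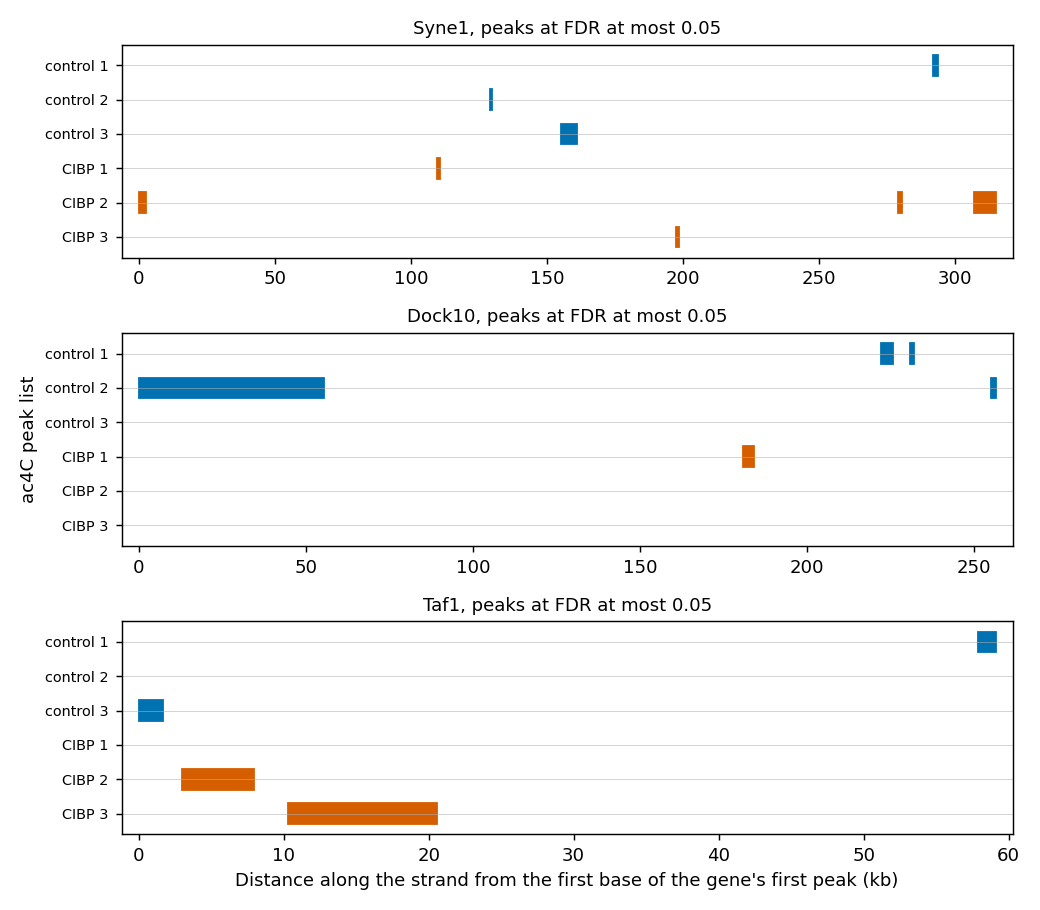
Places of the peaks at an FDR of at most 0.05 along Syne1, Dock10 and Taf1, as distance in kb along the strand from the first base of each gene's first peak, by list (blue control, orange CIBP). Boxes span a peak from first to last base, introns included, with a minimum drawn width of 0.3 percent of the panel. No peak of 1 list overlaps a peak of another.

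As deposited, 11 of 218 segments held peaks of at least 2 lists, and 10 of these 11 involved a CIBP 1 peak. In Taf1, the CIBP 3 peak of fold 77.7 lay wholly within a CIBP 1 peak of 838 exonic bp, sharing 180 bp. In Csmd3 the control 2 peak and a CIBP 1 peak shared 181 bp, and in Tnxb the control 1 peak shared 150 bp. The only shared segment outside CIBP 1 was shared by 1 bp. Where at least 50% of the shorter peak had to be shared, 5 segments remained.

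The member peaks at the limit were of even size and often lay over several exon blocks. Their exonic length had a median of 180 bp, between 119 and 241 bp. Of the 40 peaks, 31 (77.5%) lay over at least 2 exon blocks, against 56.2% of such peaks in all RIP-table genes. Their median fold was 19.3, against 19.6 in all RIP-table genes. All but 4 of these peaks belonged to processed_transcript rows, and the blocks do not name the transcript they follow.

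Some of the genes lay next to a protein-coding target of the same RIP. Their share was near that of the whole table within 5 kb and below it within 50 kb. Positions could be read from peaks for 57 of the 59 genes, on 15 chromosomes, with 10 on chromosome 1 and 8 each on chromosomes 20 and X. The peak extents of 9 genes came within 5 kb of, or overlapped, that of a protein-coding gene in the RIP table. Of these 9, 8 were lincRNA or antisense_RNA rows. An extent runs from the first to the last base of all peaks of a gene, so single peaks can lie further apart. Over the 7836 RIP-table genes with a position from peaks, 17.9 percent had such a neighbour within 5 kb and 60.4 percent within 50 kb, where 25 of the 57 had one. In 5 pairs the genes were on opposite strands and in 4 on the same strand. The member had the lower log2 fold of its pair in 7 and the higher in 2, and within 50 kb the counts were 17 and 8. Of the 59 genes 40 lay below the median log2 fold of all rows whatever their neighbour. How often other rows lay below a neighbour was not counted, so these counts show no relation to the neighbour. Use of strand in the counting is not stated, so reads of genes that overlap, or lie antisense to each other, cannot be told apart.

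Tug1 and Morc2, a chromatin ATPase, faced each other on opposite strands 1504 bp apart, with log2 folds of 2.43 and 2.29 in the authors' deposited table. LOC108349594 lay 3201 bp from Chd2, a chromatin remodeller, on the same strand, with 2.34 and 2.47 in the authors' deposited table. In both pairs the members' folds were near those of their neighbours.

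In 3 other pairs they were further apart. Rn50_X_0714.1 had a log2 fold of 1.30 and Pdzd11, 1611 bp away, of 2.38 in the authors' deposited table. AABR07019254.2 had 1.43 and Slitrk5, a synaptic adhesion protein 4104 bp away, had 2.28 in the authors' deposited table. AABR07036331.2 had 1.38 and Rhof, a small GTPase 1215 bp away, had 2.08 in the authors' deposited table. A further 3 pairs had overlapping extents: the antisense row Rn60_20_0032.5 with RT1-S3 (2.38 and 2.21 in the authors' deposited table), the antisense row Fam104b with FAM120C (2.11 and 2.51) and Grm4, a glutamate receptor, with Ppil1 (1.61 and 2.12).

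Proteins known to bind or organise nuclear long noncoding RNAs were looked up in the same table. Of a list of 20 such proteins of paraspeckles and nuclear speckles, 19 had a row, with a median log2 fold of 2.26 in the authors' deposited table, 5 above and 14 below the median of all rows. A peak at the FDR limit was present for 12 of the 19, against 36.8 percent of all rows. In CIBP 0 were gained (1.8 percent of all rows were) and 1 lost (1.71 percent). The input signals of the 19 ran from 2.12 (Rbm14) to 28.7 (Srrm2), mostly above the median mean input of all rows, 3.35. The part of input level in their share with a peak was not tested. Son, a speckle scaffold, had such peaks in 2 control and 3 CIBP lists, and Srrm2, another speckle scaffold, in 3 and 2. Srsf5, a splicing factor, had them in 2 control lists and no CIBP list. The core paraspeckle proteins Sfpq and Nono had log2 folds of 1.69 and 2.14 in the authors' deposited table, with input signals of 10.3 and 11.3 for Sfpq and 9.17 and 10.1 for Nono.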

How the data were processed

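The submitters' processing notes name build rn6 and, with no role for any of them, featureCounts 1.6.3, HOMER 4.10.4, HISAT2 2.1.0, cutadapt 2.5 and DESeq2. No source used here says which caller made the peaks. Each peak came, per the file headers, with a p-value, a fold (the ratio of IP to input) and 2 scores that hold log10 of the p-value and of the FDR. For the RIP the authors deposited, per gene, a log2 fold, a p-value, an FDR and 4 normalised signal values of an unstated unit, 1 per library. Read depth is unknown, so no interval from counting could be given.

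Members were taken by the biotype column of the RIP table and joined to peaks by gene identifier. Starts are printed 1-based. Peaks overlap when exon blocks share at least 1 bp on 1 strand. Gained means a peak in at least 2 of 3 CIBP lists and 0 of 3 control lists, and lost the opposite. Numbers and shares per list were compared by two-sided exact permutation over all splits of the lists (numpy 2.4.6) and adjusted with statsmodels 0.14.6. The permutation p was checked against that of scipy 1.17.1 on simulated draws. Pair folds are log2 of same-numbered IP over input signal. A gene's position is the extent of its peaks in all lists. Named genes were those with peaks in several lists or at the FDR limit (up to 15), the 10 highest and 5 lowest RIP folds, the 10 highest inputs, known long noncoding RNAs, and members with a neighbour within 5 kb. Kantr, LOC102549726, LOC102553190, AABR07045680.1 and the examples from the speckle list were chosen after their values were seen. The members and gene lists were chosen with earlier results of these data known. The scripts were tested on simulated data. Values of some genes are not reported here. No peak or promoter sequence is printed, and an rn6 genome was not used here. If replicates were not separate animals, p-values measure only the spread between samples.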

Additional observations from a re-analysis of the deposited data

How the results depend on the processing

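The difference in mean number of genes with a peak (CIBP minus control, 15.3 as deposited) was 0 at an FDR of at most 0.05 and ranged from 0 to 24 with 1 list left out, 0 being the value without CIBP 1. The difference in share (-0.0641 percentage points) turned to 0.0728 at a p-value of at most 0.001, to 0.0261 for lincRNA rows alone and to 0.0574 without control 1, and its range with 1 list left out was -0.178 to 0.0574. The exact p for the number of genes was 0.1 without CIBP 3, the smallest this design can give. Gained genes numbered 5 as deposited, 1 at the FDR limit, 2 at the p-value limit, 2 for lincRNA rows alone and 0 to 6 with 1 list left out. Lost genes numbered 0, then 1 at the FDR limit and 0 to 2 with 1 list left out. Segments shared by lists fell from 11 to 5 when 50% of the shorter peak had to overlap and to 0 at the FDR limit. Neighbours within 50 kb numbered 25, against 9 within 5 kb. The median RIP log2 fold of 2.103 was 1.94 for lincRNA rows alone, 1.74 with a pseudocount of 1, and 2.11 to 2.18 with 1 pair left out. The median input signal of 2.60 was 2.26 for lincRNA rows alone, 3.62 at or above the lower quartile of input, and 2.61 to 2.66 with 1 pair left out. The causes of these changes were not tested, apart from those that follow from fewer lists or genes.

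With the replicate block (same-numbered lists paired, which cannot go below p = 0.25), the difference in number was 15.3 (exact sign-flip p = 0.5), that in share -0.0641 (p = 0.75), and the RIP median from paired libraries 2.11, and no call changed. Deviations of same-numbered lists correlated by 0.0387, -0.0039 and 0.0437. Most genes had no peak in most lists, and replicate 1 includes CIBP 1, so these values cannot decide whether same-numbered lists were paired. Few lists and 1 list of another kind limit every comparison of CIBP with control.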
